A study of Mus musculus with 12 samples.

Results

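Mouse 3T3-L1 cells given 1 of 4 ethylene glycol derivatives of squalene, called mono-, di-, tri- and tetra-SQ, were compared as one group with cells given plain squalene (SQ). The comparison holds 10 of the 12 arrays of the series: 8 derivative arrays, 2 for each compound, and 2 SQ arrays. The members were taken by their column labels and by no measured value, though earlier results of these data were known. The 2 control arrays without compound were not used. All 5 groups were labelled with the same dose, 5 µM, and the same time, 14 days. Arrays of every compound carry a replicate number, 1 or 2. Per the labels, each group was induced with IBMX, dexamethasone and insulin together with its compound and was then kept in insulin medium with the compound. Only the compound therefore differs by label. Array signals are log2 values, so a difference of 1 is 2-fold, and differences are given throughout as derivatives minus SQ. No label says that the 2 replicates of a compound came from separate cultures, so the p values below measure the spread between these arrays, which may be partly technical.

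Squalene is a long open-chain hydrocarbon made in the sterol pathway, before the rings of cholesterol are closed. 3T3-L1 is a fibroblast-like mouse preadipocyte line that builds lipid droplets and switches on fat cell genes after hormonal induction, under the transcription factor Pparg. In such cells sterol enzymes, lipid droplet proteins and secreted adipokines are the usual readouts of lipid handling and of differentiation. The comparison asks whether adding a glycol group to squalene alters the response of differentiating fat cells.

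Cell type markers of the cultures were checked first. All 8 adipocyte markers lay above the median signal of the negative control probe sets, which ran from 6.09 to 6.66 over the 10 arrays. Of the other markers, 11 of 12 for macrophages, 11 of 12 for muscle, 9 of 9 for endothelium, 6 of 9 for osteoblasts and 6 of 8 for chondrocytes averaged below the lowest of those medians. The osteoblast marker Spp1, above it, averaged 17.1, beside 17.5 for the adipocyte marker Fabp4. Of 15 preadipocyte and anti-adipogenic genes 8 averaged below that median, while Dlk1 averaged 17.1 and Pdgfrb 14.0. The median adipocyte marker stood at 15.825 on SQ 1 and between 16.2 and 16.335 on the derivative arrays of replicate 1. On the arrays of replicate 2 it stood at 12.78 for SQ and between 12.7 and 13.015 for the derivatives. Adipocyte gene signal thus differed far more between replicate numbers than between SQ and its derivatives. In bulk RNA, fewer fat cells and less RNA per fat cell cannot be told apart. The median macrophage marker lay at 4.35 and 4.075 on the SQ arrays and between 3.72 and 4.43 on the derivative arrays. The 2 arrays of a compound correlated at 0.968 to 0.979 across probe sets, and 2263 to 3669 probe sets differed by over 1 log2 between them. The derivatives of one replicate number correlated with each other at 0.989 to 0.994. SQ 1 and tri-SQ 2 had the narrowest spread of signal over probe sets, with SDs of 3.29 and 3.30, against 3.36 to 3.43 for the other 8 arrays.

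None of the 8 adipocyte markers passed the pooled test. Fabp4, the fatty acid carrier of fat cells, read 18.56 on SQ 1 and between 18.76 and 18.81 with the derivatives of replicate 1. In replicate 2 it read 16.35 with SQ and between 15.96 and 16.54 with the derivatives. The pooled difference was 0.02 (95% interval -0.38 to 0.42). Lpl, which frees fatty acids from lipoproteins, differed by -0.02 (-0.38 to 0.33), and Plin1, a coat protein of lipid droplets, by -0.12 (-0.55 to 0.32). Pparg itself read 15.36 on SQ 1 against 15.51 to 15.71, and 12.60 on SQ 2 against 12.62 to 12.92. Its SQ arrays were below all 4 derivatives in both replicates, at a difference of 0.24 (-0.11 to 0.59). The adipokine gene Adipoq differed by 0.12 (-0.49 to 0.73) and Cidec, which helps droplets fuse, by 0.18 (-0.25 to 0.60). The insulin-responsive glucose transporter gene Slc2a4 differed by 0.20 (-0.25 to 0.64). The widest interval was that of Cfd, the secreted protease adipsin, at 0.06 (-0.71 to 0.84). Single arrays lay farther off: Cfd read 9.40 on tri-SQ 2 against 10.82 on SQ 2, and 15.82 on mono-SQ 1 against 14.92 on SQ 1. Adipoq read 14.05 on tri-SQ 2 against 15.12 on SQ 2. Fabp4, Cidec, Cfd and Adipoq lay on the other side of 0 in replicate 2 alone. None of the 8 intervals of the pooled difference reached 1 log2, so pooled differences of 2-fold or more lie outside them.

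**Figure D1:**
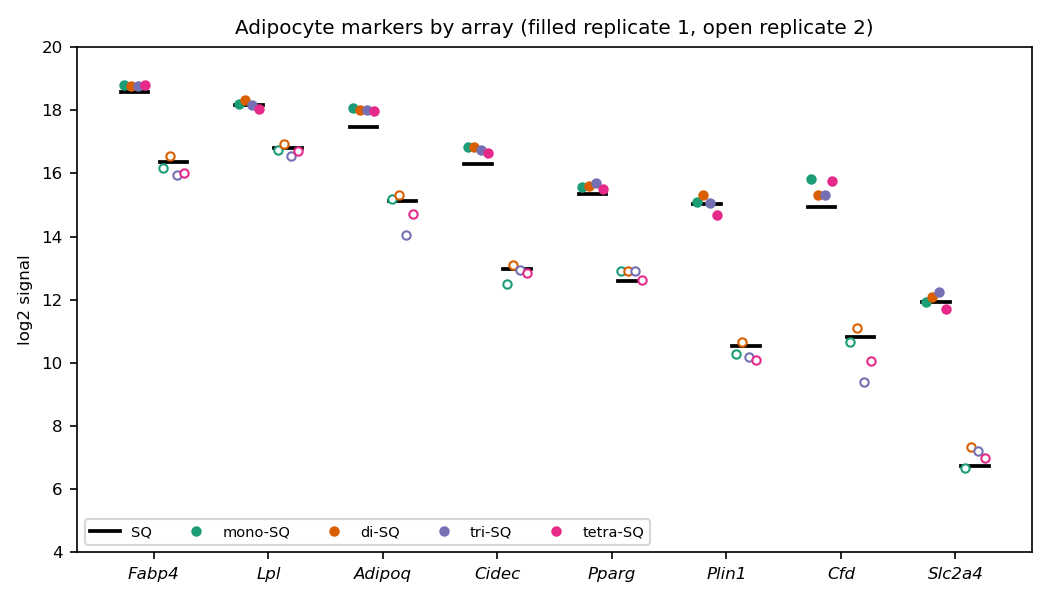
Log2 signal of the 8 adipocyte markers on the 10 arrays; the vertical axis is log2 signal, black bars are the SQ arrays, filled circles the derivatives of replicate 1 and open circles those of replicate 2. Plin1 stands at 15.04 on SQ 1 and 10.53 on SQ 2, and tri-SQ 2 lies well below the SQ 2 bar for Cfd (9.40 against 10.82) and Adipoq (14.05 against 15.12).

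No gene passed the test of the pooled comparison. With limma, the replicate number as a block and Benjamini-Hochberg adjustment over 22206 probe sets, 0 probe sets (0%) had an adjusted p under 0.05, the lowest value being 0.732. At an unadjusted p under 0.05 there were 1178 probe sets (5.3%), 520 of them higher with the derivatives (2.34%) and 658 lower (2.96%). Among these 1178, 64.6% lay under the negative controls in both groups. Of all probe sets, 54.7% had a mean over the arrays under the lowest negative control median. That share was not split by group, so the 2 shares are only roughly comparable. The median probe set differed by 0.00 and the median size of a difference was 0.155. Half-widths of the 95% intervals had a median of 0.46, and for 20508 probe sets (92.4%) the whole interval lay within 1 log2 of 0. A difference past 1 log2 was estimated for 14 probe sets. Without the array SQ 2, limma called 1 gene, Myo9a, an unconventional myosin, and 2643 probe sets had an unadjusted p under 0.05. SQ is then 1 array, assumed to vary like the derivative arrays, so this call has no replicate check.

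The arrays were also read without a model, by asking where SQ lay outside the range of its 4 derivatives. This happened on the same side in both replicates for 1708 probe sets (7.69%), with 822 (3.7%) higher and 886 (3.99%) lower in the derivatives. It happened on opposite sides for 2575 probe sets (11.6%), with 1405 (6.33%) higher in replicate 1 and lower in replicate 2 and 1170 (5.27%) the other way. The 24 genes named next are the 12 on each same side with the smallest p among probe sets of sufficient level, and none of them passed the test (limma, adjusted p between 0.732 and 0.840). Their intervals exclude 0 because they were chosen for small p.

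Rgs8, a regulator that speeds the shut-off of G proteins (chr1:153652959-153697669, GRCm38.p6), had the smallest p. Its signal was 7.09 on SQ 1 and between 5.70 and 6.02 on the derivative arrays of replicate 1. On SQ 2 it was 6.60, against 5.56 to 5.97. SQ was the highest array in both replicates, and the difference was -0.99 (95% interval -1.39 to -0.58, adjusted p 0.732 in limma). Against SQ alone the differences were -0.85 for mono-SQ, -1.07 for di-SQ, -1.09 for tri-SQ and -0.94 for tetra-SQ, and their intervals overlapped widely. The derivative signals lay below the negative controls, so the size of the gap is not measured down to its floor.

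Calr4, a calreticulin relative of the endoplasmic reticulum (chr4:109218413-109254979), read 7.60 on SQ 1 against 5.14 to 5.92, and 5.65 on SQ 2 against 4.55 to 5.32. All of these signals except that of SQ 1 were under the negative controls, so the fitted difference of -1.37 (-1.97 to -0.77) has no measured floor. Rasgrf1, an exchange factor that loads Ras with GTP (chr9:89909508-90026979), stood well above background. It read 9.09 on SQ 1 against 7.17 to 7.84, and 7.82 on SQ 2 against 7.26 to 7.41. Its difference was -1.03 (-1.55 to -0.51), made of -1.60 in replicate 1 and -0.46 in replicate 2.

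Atg16l2, a relative of the autophagy protein Atg16l1 (chr7:101286325-101302267), was the brightest of the 12 lower genes. It read 11.32 on SQ 1 against 9.87 to 10.20, and 10.59 on SQ 2 against 9.68 to 10.46. The derivative mono-SQ 2, at 10.46, almost reached SQ 2, and the pooled difference was -0.94 (-1.43 to -0.46). Txndc11, a thioredoxin-domain protein, read 7.81 on SQ 1 against 6.91 to 7.41. On SQ 2 it read 8.02, against 6.44 to 7.20, and the difference was -0.97 (-1.48 to -0.46). Csrnp2, a nuclear protein rich in cysteine and serine, differed by -0.77 (-1.22 to -0.33), with 7.79 on SQ 1 against 7.06 to 7.38 and 7.34 on SQ 2 against 6.13 to 6.91. In replicate 2, all derivative arrays of Txndc11 and Csrnp2 except di-SQ 2 were under their own negative control medians of 6.51 to 6.66. Their gaps there, -1.34 and -0.91, therefore have no measured floor. The other lower genes were dimmer. The tetratricopeptide repeat gene Ttc36 (-0.86) and Tspo2, a relative of the translocator protein (-0.93), had derivative means under the negative controls. Both group means were under them for Col6a5 (-0.90), a chain of type VI collagen, and Ak8 (-1.01), an adenylate kinase. The same held for Tnfrsf18 (-0.89), a receptor known from T cells, and Ctdp1 (-0.74), a phosphatase of RNA polymerase II. Tnfrsf18 read 6.40 on SQ 1, though, above that array's median of 6.14.

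Among the 12 higher genes, Ghrh, which codes for growth hormone releasing hormone (chr2:157329496-157348725), read 13.97 on SQ 1 against 14.35 to 15.03, and 5.17 on SQ 2 against 6.15 to 7.16. The gene was thus bright on all arrays of replicate 1, with SQ lowest and a gap of 0.73. In replicate 2 the gap was 1.44, with SQ 2 below its array's negative control median of 6.48, so the pooled difference of 1.09 (0.51 to 1.66) rests in part on signal below background. Papolg, a nuclear poly(A) polymerase (chr11:23860145-23895293), read 8.42 on SQ 1 against 9.12 to 9.57, and 8.67 on SQ 2 against 9.11 to 9.57. It had similar gaps in both replicates, 0.93 and 0.61, and a pooled difference of 0.77 (0.37 to 1.17). Ispd, which makes a sugar donor used to glycosylate dystroglycan (chr12:36380575-36689503), read 6.13 on SQ 1 against 6.97 to 7.26, and 6.36 on SQ 2 against 6.61 to 7.42. The difference was 0.85 (0.41 to 1.29). Both SQ signals were below the negative control medians of their own arrays, 6.14 and 6.48, so this gap rests in part on signal below background.

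Kat2b, a histone acetyltransferase (chr17:53566774-53672721), read 7.39 on SQ 1 against 8.44 to 9, but 7.08 on SQ 2 against 7.30 to 7.44. Its gap of 1.31 in replicate 1 and 0.27 in replicate 2 gave a pooled difference of 0.79 (0.31 to 1.27). Mettl7b, a methyltransferase-like protein found on lipid droplets, read 7.99 on SQ 1 against 8.45 to 8.97, and 5.35 on SQ 2 against 5.89 to 6.41. Its gap in replicate 1 was 0.72, and all 5 arrays of replicate 2 were under their own negative control medians. Kcnq1ot1, a long noncoding RNA transcribed across the imprinted Kcnq1 gene, differed by 0.69 (0.27 to 1.11), and the zinc finger gene Zfp236 by 0.69 (0.27 to 1.11). The RNA-binding protein gene Caprin2 (0.76), Cox6a2, the muscle form of a cytochrome oxidase subunit (0.82), the X-linked gene Xlr (0.75) and the rhomboid relative Rhbdd3 (0.66) had mean SQ signals under the negative controls. Cox6a2 read 6.62 on SQ 1, above that array's median of 6.14. The replicate 2 derivatives of Cox6a2 (5.80 to 6.53) and Xlr (6.03 to 6.26) were also under their own arrays' medians. For Caprin2 and Rhbdd3 this held for every replicate 2 derivative except tri-SQ 2. Trim29 (0.92), a tripartite motif protein gene, had both group means under the lowest negative control median. Its replicate 1 derivatives read 6.78 to 7.75, above their arrays' medians of 6.09 to 6.28. SQ 1 (5.90) and all arrays of replicate 2 were under theirs.

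**Figure D2:**
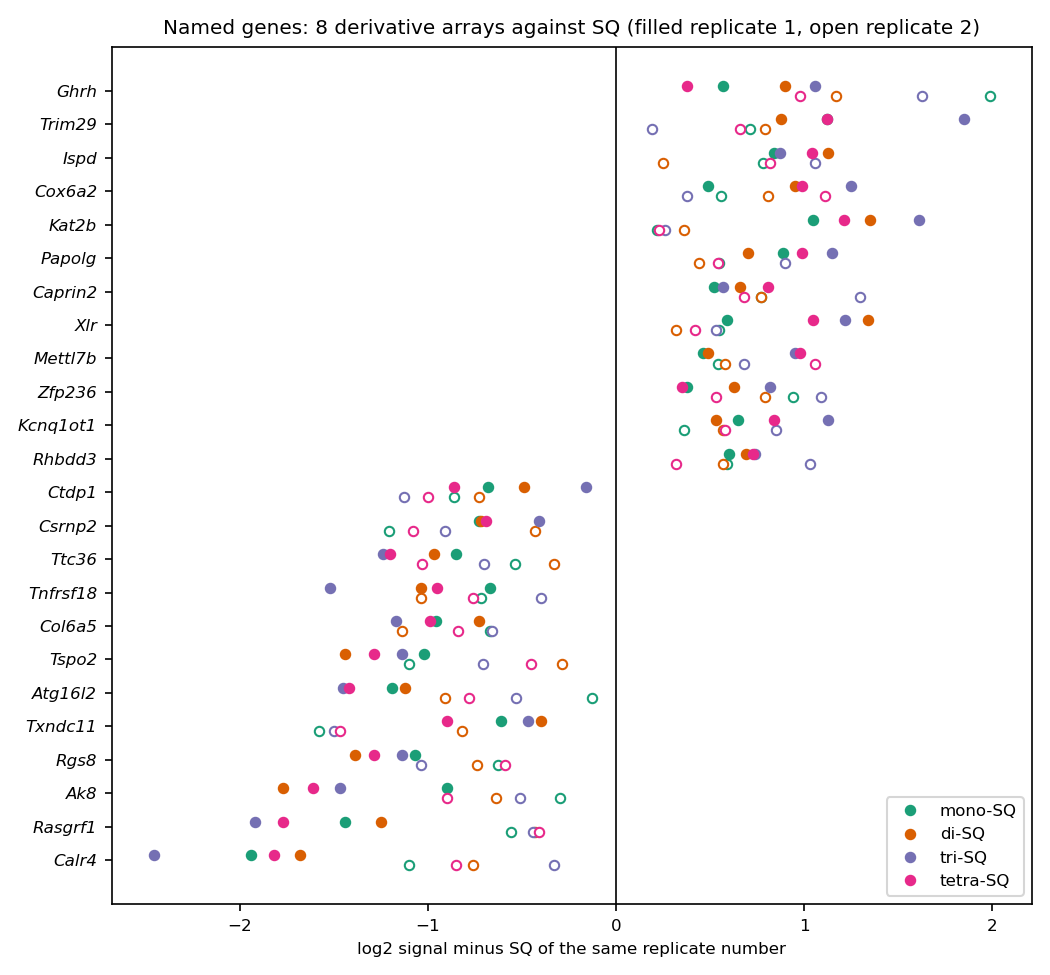
Log2 signal of each of the 8 derivative arrays minus the SQ array of the same replicate number, for the 12 higher and 12 lower named genes; filled circles are replicate 1 and open circles replicate 2, coloured by derivative. Every point lies on one side of 0 because the genes were chosen that way, and the 2 replicates of Kat2b (1.31 and 0.27) and Calr4 (-1.98 and -0.76) stand apart.

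The genes of sterol and fat metabolism were read as lists. Of 19 measured genes of cholesterol synthesis, 12 lay above 0 and the median was 0.09, against 50.2% of all probe sets above 0, 56.1% of the 10057 above the negative controls, and a median of 0.00. Pmvk and Idi1, which act in consecutive stretches of the mevalonate part of the pathway, had unadjusted p values of 0.0159 and 0.0361 in limma and did not pass after adjustment. Pmvk read 6.69 on SQ 1 against 7.91 to 8.34, but 7.34 on SQ 2 against 7.04 to 7.59. Idi1 read 12.30 on SQ 1 against 13.10 to 13.26, but 11.03 on SQ 2 against 10.93 to 11.24. For both, SQ was the lowest array of replicate 1 and lay inside the derivatives in replicate 2. The list median was 0.27 in replicate 1 and -0.04 in replicate 2. Among the 15 genes of sterol sensing and uptake the median was 0.07. Insig1, which holds the sterol sensor in the endoplasmic reticulum, differed by 0.21 (unadjusted p 0.265). Of 13 LXR targets and efflux genes 10 lay above 0, with a median of 0.07. Nr1h3, the oxysterol receptor LXR alpha, stood at 0.71 in replicate 1 and -0.13 in replicate 2. Smpdl3a, a phosphodiesterase induced by LXR, averaged under the negative controls in both groups.

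Fatty acid synthesis had 9 of 17 genes above 0 and a median of 0.11. Acss2, which makes acetyl-CoA from acetate, differed by 0.29, and Me1, a source of NADPH, by 0.29, with unadjusted p values of 0.105 and 0.123. Triglyceride assembly had 6 of 14 above 0 and a median of 0.00. Its lead members were Dgat1, which adds the last fatty acid (0.30), and Pnpla3 (0.58, unadjusted p 0.028 in limma). Both group means of Pnpla3 were under the negative controls. In replicate 1 Pnpla3 read 6.65 on SQ and 6.80 to 7.35 with the derivatives, above the negative control medians of those arrays. Only its replicate 2 arrays, at 4.19 to 5.46, were under theirs. Lipid droplet proteins had 10 of 14 above 0 and a median of 0.09. G0s2, an inhibitor of fat cell lipase, read 9.96 on SQ 1 against 10.57 to 10.88, and 6.38 on SQ 2 against 6.13 to 6.91. Its difference was 0.51 (0.05 to 0.97, unadjusted p 0.0336). Bscl2, the droplet assembly protein seipin, was 1.15 higher in replicate 1 and -0.06 in replicate 2. In lipolysis 6 of 12 lay above 0. There Abhd5, the co-activator of fat cell lipase, had the largest size at -0.38 (-0.82 to 0.05), and the glycerol channel gene Aqp7 differed by 0.16. For fatty acid uptake 10 of 13 were above 0, with the transporters Slc27a4 at 0.45 and Cd36 at 0.28. For 21 genes of mature adipocytes 17 lay above 0, with a median of 0.13 that was 0.21 in replicate 1 and 0.00 in replicate 2. Adipogenic transcription factors had 12 of 18 above 0, and Klf5, an early one, stood at 1.00 in replicate 1 and -0.23 in replicate 2. Fatty acid oxidation had 18 of 25 above 0. Its lead members were Acaa1a, a peroxisomal thiolase (0.35), and Ucp3, an uncoupling protein (0.33), whose mean SQ signal was under the negative controls. Ucp3 read 6.81 on SQ 1 and 4.76 on SQ 2. In 10 of these 11 lists the replicate 1 median was above the replicate 2 median, and 0 members passed the adjusted test.

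Signalling and stress genes were next. Over the 40 gene lists other than markers, 27 of 963 list entries had an unadjusted p under 0.05, against 5.3% of all probe sets. Tgfb3, a growth factor of the TGF-beta family, read 7.66 on SQ 1 against 6.80 to 7.31, and 9.59 on SQ 2 against 8.76 to 9.37. SQ was highest in both replicates, with gaps of -0.56 and -0.54 and an unadjusted p of 0.0132. Mcm5, part of the helicase that opens DNA for replication, differed by -0.58, with 8.93 on SQ 1 against 7.68 to 8.32 and 9.68 on SQ 2 against 9.16 to 9.51. Aurka, a kinase of the mitotic spindle, read 8.08 on SQ 1 against 7.09 to 7.74 and 8.77 on SQ 2 against 8.25 to 8.71, a difference of -0.55. For all 3, SQ lay above every derivative array of its replicate. Of 28 mitosis genes 21 lay below 0, against 49.8% of all probe sets, with a median of -0.16. By derivative that median was -0.06 with mono-SQ, -0.11 with di-SQ, -0.47 with tri-SQ (26 below 0) and 0.12 with tetra-SQ (9 below 0). In addition, of 30 DNA replication genes 17 lay below 0, with a median of -0.02. Aen, a nuclease induced by p53, stood at -0.47 with SQ highest in both replicates.

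No inflammatory gene passed the test. Of 30 chemokine and cytokine genes 17 lay below 0, against 49.8% of all probe sets, and 19 of the 30 were under the negative controls. Their median was -0.06 pooled, -0.17 in replicate 1 and -0.18 in replicate 2. Ccl20, a chemokine that draws lymphocytes, was one of those. The bright chemokine gene Cxcl12 read 16.69 on SQ 1 against 16.03 to 16.60 and 17.68 on SQ 2 against 17.38 to 17.64, a difference of -0.28 (-0.67 to 0.11). Tlr4, the receptor for bacterial lipopolysaccharide, read 10.71 on SQ 1 against 11.58 to 11.91, but 10.51 on SQ 2 against 10.23 to 10.66. Lbp, which hands lipopolysaccharide to it, differed by -0.50, and its derivative mean was under the negative controls. Of 34 interferon-stimulated genes 20 lay below 0, and the lead one, the immunoproteasome subunit gene Psmb8 (-0.65), was under the negative controls. Cd68 was the macrophage marker above background, and it differed by 0.00 (-0.50 to 0.51). Macrophage markers had 6 of 12 above 0 and 6 below, with Cx3cr1 at -0.785 and under the negative controls. Muscle markers had 8 of 12 above 0 and 4 below. Tnnt3, a troponin of muscle, differed by 0.52 and Acta1 by -0.96, both with mean levels under the negative controls.

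Of 36 NRF2 target and glutathione genes 21 lay above 0. For this and the next lists, the share above 0 was 50.2% over all probe sets and 56.1% among those above the negative controls. Gstm5, a glutathione transferase, differed by 0.57, and Slc7a11, the cystine importer, by 0.48. Aldh1a7, an aldehyde dehydrogenase, read 9.38 on SQ 1 against 10.75 to 11.21, but 7.23 on SQ 2 against 6.94 to 7.57. Its gap of 1.58 in replicate 1 had no counterpart in replicate 2 (0.02). Abcb1a, a drug efflux pump, stood at -0.81 in replicate 1 and -0.11 in replicate 2, with its derivative mean under the negative controls. Map1lc3a, a protein of autophagosome membranes, stood at 0.52, and Clk1, a kinase of splicing factors, at 0.48. Of 18 glucocorticoid targets 13 lay above 0, with the highest median of the 40 lists, 0.16. Nr3c2, the mineralocorticoid receptor, differed by 0.56, and SQ 2, at 8.93, lay inside its derivatives at 8.87 to 9.41. Nfil3, a transcription factor of the clock output, was higher by 0.82 in replicate 2 and by 0.16 in replicate 1. Of 27 insulin signalling genes 21 lay above 0, with a median of 0.09.

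Replication-dependent histone genes had the lowest median of the 40 lists. These genes code for the bulk histones packed onto new DNA, and their transcripts usually lack a poly(A) tail. Of 35 measured genes 34 lay below 0 with the derivatives, against 49.8% of all probe sets and 43.9% of those above the negative controls, and the median was -0.29, against 0.00 for all probe sets and -0.16 for mitosis genes, the next lowest pooled median. The median was -0.34 in replicate 1 and -0.23 in replicate 2. In both replicates at once, 29 of the 35 lay below 0, against 22.6% of all probe sets and 19.6% of those above the negative controls (22.8% of all lay above 0 in both). Even so, 0 genes passed the adjusted test and 1 was lower at an unadjusted p under 0.05, against 2.96% of all probe sets. For 3 of the 35, SQ was above all 4 derivatives in both replicates, against 3.99% of all probe sets. The list is singled out as the lowest of 40 in these same data, and the lists were chosen with earlier results known. These shares therefore describe the list and are not a test.

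By derivative, the median of the 35 histone genes was -0.20 for mono-SQ, -0.20 for di-SQ, -0.42 for tri-SQ and -0.33 for tetra-SQ, with 30, 32, 34 and 32 genes below 0. The single arrays were less even. Against SQ 1 the medians were 0.00 for mono-SQ, -0.13 for di-SQ, -0.92 for tri-SQ and -0.27 for tetra-SQ. Against SQ 2 they were -0.42, -0.28, 0.03 and -0.37 in the same order. The 2 arrays of tri-SQ were thus the lowest and the highest of the 8, and with tri-SQ left out the replicate medians were -0.16 and -0.34. Copies of these genes are nearly identical and lie in clusters, so probe sets may read several of them and the 35 values are not independent.

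Hist1h2bg, a gene for histone H2B, read 7.73 on SQ 1 against 6.35 to 7.39. On SQ 2 it read 8.37 against 7.57 to 8.48, so tri-SQ 2 was above SQ there. Its difference was -0.69 (-1.30 to -0.08, unadjusted p 0.0286). Hist1h2bk read 11.84 on SQ 1 against 10.29 to 11.77, and 13.53 on SQ 2 against 12.59 to 13.47, a difference of -0.65. Hist1h1c, a linker histone gene, was the 1 gene above 0, at 0.21, with 0.89 in replicate 1 and -0.47 in replicate 2. Hist1h4i stood at 0.00 after rounding and is counted among those below.

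Promoters of 1 gene for each core histone are given below, since nearly all of these genes lay on one side of 0 and they are known for a shared type of compact promoter. For each class the gene with the smallest p above the level floor was taken: Hist1h2ab for H2A (-0.47), Hist1h2bg for H2B (-0.69), Hist1h3c for H3 (-0.46) and Hist1h4k for H4 (-0.39). Sequences come from RefSeq on GRCm38.p6 and run from 250 bases before to 50 after the gene start, 5′ to 3′ on the gene's strand. They lie at chr13:23750838-23751137, plus strand for Hist1h2ab, chr13:23571150-23571449, plus strand for Hist1h2bg, chr13:23745472-23745771, minus strand for Hist1h3c and chr13:21750504-21750803, minus strand for Hist1h4k. Capitals mark the letters CCAAT, which the factor NF-Y binds and which read ATTGG from the other strand. Capitals also mark TATAAA, the core promoter element that TBP binds. Each motif was searched on both strands.
Hist1h2ab: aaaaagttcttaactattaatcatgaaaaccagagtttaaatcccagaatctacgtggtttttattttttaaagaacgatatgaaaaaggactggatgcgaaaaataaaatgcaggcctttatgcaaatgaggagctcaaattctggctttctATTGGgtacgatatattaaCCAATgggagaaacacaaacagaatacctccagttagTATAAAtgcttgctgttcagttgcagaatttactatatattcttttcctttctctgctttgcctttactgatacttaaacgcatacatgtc
Hist1h2bg: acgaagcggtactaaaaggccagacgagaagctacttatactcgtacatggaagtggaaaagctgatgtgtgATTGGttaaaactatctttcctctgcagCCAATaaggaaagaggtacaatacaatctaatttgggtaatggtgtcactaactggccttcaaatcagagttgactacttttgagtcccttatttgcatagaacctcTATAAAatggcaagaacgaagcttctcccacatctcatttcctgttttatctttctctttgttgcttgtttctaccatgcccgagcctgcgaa
Hist1h3c: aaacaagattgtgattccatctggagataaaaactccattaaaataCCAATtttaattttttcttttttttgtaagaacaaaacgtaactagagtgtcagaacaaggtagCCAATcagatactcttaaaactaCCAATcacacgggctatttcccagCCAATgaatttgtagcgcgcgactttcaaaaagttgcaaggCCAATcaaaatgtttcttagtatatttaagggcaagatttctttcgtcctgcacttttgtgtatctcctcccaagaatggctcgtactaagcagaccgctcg
Hist1h4k: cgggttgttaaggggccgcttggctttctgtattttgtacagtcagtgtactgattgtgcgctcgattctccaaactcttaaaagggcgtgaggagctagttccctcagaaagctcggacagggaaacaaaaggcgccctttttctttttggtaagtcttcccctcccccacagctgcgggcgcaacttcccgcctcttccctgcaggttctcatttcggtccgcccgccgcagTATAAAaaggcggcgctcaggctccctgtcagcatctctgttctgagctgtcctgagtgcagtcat

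Of the 35 histone genes 33 had a promoter in the table. CCAAT was found in 27 of the 33 (81.8%), against 37.4% of 32851 promoters of the same length, and at least 2 copies in 23 (69.7%), against 11.7%. TATAAA was found in 19 (57.6%), against 13.6%. In 0 of the 33 did the motifs overlap each other. Of the 4 printed, Hist1h3c has 5 copies of CCAAT and no TATAAA, Hist1h2ab and Hist1h2bg have 2 and 1, and Hist1h4k has no CCAAT and 1 TATAAA. Among them 3 pairs of genes have overlapping windows, so the 33 are not all separate stretches. The letters describe the windows and do not show binding.

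**Figure D3:**
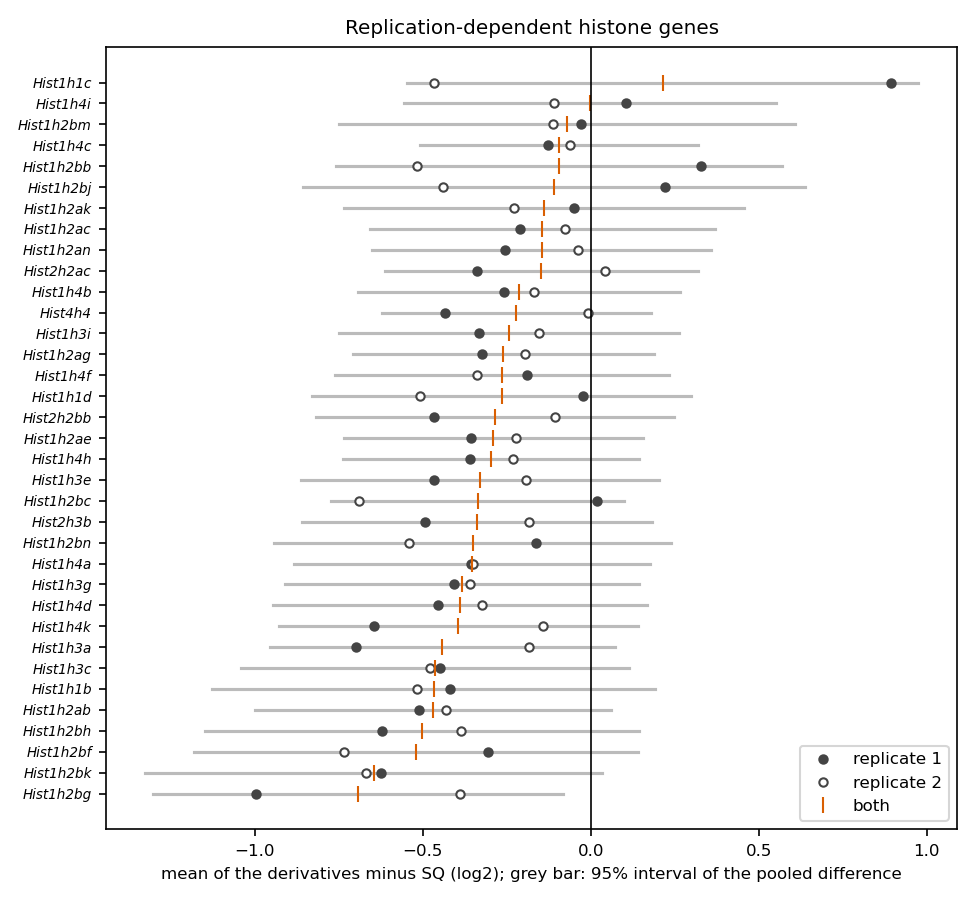
Mean of the 4 derivatives minus SQ for each of the 35 replication-dependent histone genes, on a log2 axis; filled circles are replicate 1, open circles replicate 2, orange ticks the pooled difference and grey bars its 95% interval. All but Hist1h1c have a pooled value below 0, and the grey bars of all but Hist1h2bg cross 0.

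The derivative differences of replicate 1 and replicate 2 share no array, so their likeness can be described. Across 22206 probe sets they correlated at -0.148 (Pearson) and -0.146 (Spearman), and at -0.205 and -0.207 among the 10057 probe sets above the negative controls. These are correlations across genes, which are not independent replicates, and all genes of a replicate number share its SQ array and its 4 derivative arrays. The SD of the differences was 0.436 in replicate 1 and 0.323 in replicate 2. SQ lay outside its 4 derivatives in 51.1% of probe sets in replicate 1 and in 37.4% in replicate 2. Mean level correlated with the replicate 1 difference at 0.241 and with the replicate 2 difference at -0.163. Among the 5551 brightest probe sets the median difference was 0.10 in replicate 1 and -0.06 in replicate 2. The test of the difference between replicates called 0 probe sets (0%), with a smallest adjusted p of 0.304 in limma, and 2142 (9.65%) at an unadjusted p under 0.05.

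Several lists of housekeeping genes showed this reversal in most of their members. Cytosolic ribosomal proteins, the building blocks of the ribosome, lay above 0 in 49 of 50 genes in replicate 1, with a median of 0.48. In replicate 2 they lay below 0 in 49 of 50, with a median of -0.35. Among probe sets above the negative controls, 62.1% were above 0 in replicate 1 and 58.6% below 0 in replicate 2. For 34 of the 50, SQ was below all 4 derivatives in replicate 1 and above all 4 in replicate 2, a pattern held by 6.33% of all probe sets and 11.1% of those above the negative controls. The median ribosomal gene read 14.905 on SQ 1 against 15.395 to 15.735, and 15.94 on SQ 2 against 14.805 to 15.84. Of the 50, 16 had an unadjusted p under 0.05 in the test of the replicate difference, against 9.65% of all probe sets.

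Respiratory chain subunits, which pass electrons to oxygen in mitochondria, followed the same course. In replicate 1, 29 of 32 lay above 0 with a median of 0.62, and in replicate 2, 32 of 32 below 0 with a median of -0.32. For 12 of them SQ was outside the derivatives in these opposite ways. Uqcrc2, a core subunit of complex III, read 8.54 on SQ 1 against 9.35 to 9.68, and 7.88 on SQ 2, inside its derivatives, which reached 8.21. Uqcrfs1, its iron-sulfur subunit, had gaps of 0.96 and -0.24. Proteasome subunits, which form the main protein-degrading machine, had medians of 0.57 (28 of 30 above 0) and -0.27 (28 of 30 below). Psmb3, a core subunit, read 10.44 on SQ 1 against 10.77 to 11.34 and 10.41 on SQ 2 against 10.42 to 10.74, so it was above SQ in both replicates. Psmd12, of the regulatory cap, had gaps of 0.59 and -0.03. The citric acid cycle had medians of 0.40 and -0.20, fatty acid oxidation 0.33 and -0.21, and NRF2 targets 0.40 and -0.23. Rps28, a protein of the small ribosomal subunit, had gaps of 0.49 and 0.06.

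For ribosomal proteins the reversal was seen with each derivative, though not to the same size. Their median against SQ 1 was 0.51 for mono-SQ, 0.39 for di-SQ, 0.37 for tri-SQ and 0.76 for tetra-SQ. Against SQ 2 it was -0.20, -0.15, -0.80 and -0.31. Respiratory chain medians ran from 0.51 (di-SQ) to 0.69 (tri-SQ) against SQ 1, and from -0.66 (tri-SQ) to 0.04 (di-SQ) against SQ 2. Array tri-SQ 2, which had the lowest ribosomal median of the 8, had one of the 2 narrowest spreads of signal and SQ 1 the other. The part of that spread in the result was not tested. After quantile normalization, which gives all arrays one distribution, the ribosomal medians were 0.37 and -0.29, the respiratory 0.51 and -0.26 and the proteasome 0.43 and -0.21. With tri-SQ left out the ribosomal medians were 0.51 and -0.21.

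**Figure D4:**
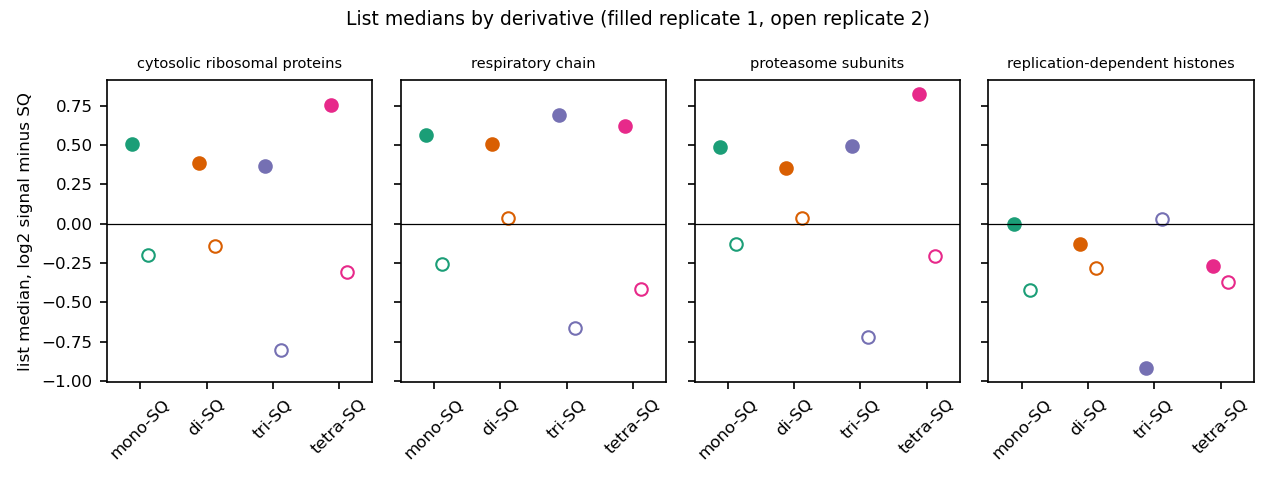
Median log2 signal minus the SQ array of the same replicate number for 4 gene lists, by derivative; filled circles are replicate 1 and open circles replicate 2. Ribosomal proteins lie above 0 with all 4 derivatives in replicate 1 and below 0 in replicate 2, and the histone median ranges from -0.92 with tri-SQ 1 to 0.03 with tri-SQ 2.

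Over the 40 lists, medians had opposite signs in the 2 replicates for 28, of which 24 were above 0 in replicate 1 and below 0 in replicate 2. They were below 0 in both for 7 and above 0 in both for 5. Histones, mitosis and chemokines were among the 7, and insulin signalling among the 5. Gene by gene, 29 of 35 histone, 15 of 28 mitosis and 7 of 30 chemokine and cytokine genes lay below 0 in both replicates. The share of all probe sets was 22.6%, so the chemokine count was near it. For insulin signalling 10 of 27 genes lay above 0 in both, against 22.8% of all probe sets.

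**Figure D5:**
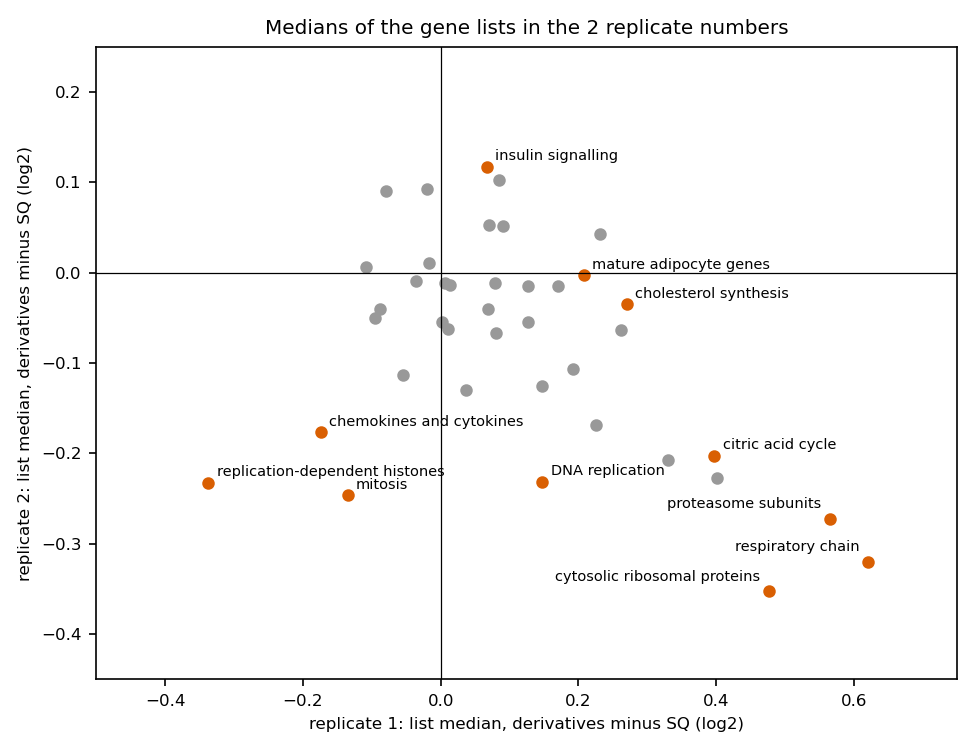
Median derivative minus SQ difference of 40 gene lists in replicate 1 (horizontal, log2) and replicate 2 (vertical, log2); each point is a list, and orange points are named. Respiratory chain, proteasome and ribosomal lists lie at the lower right (0.62 and -0.32 for the first), and histones at the lower left (-0.34 and -0.23).

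Each derivative was also set against SQ on its own at the matched dose and time, which gave 4 pairs that share the SQ arrays and were adjusted together over 88824 tests. With limma, 0 probe sets (0%) passed in any pair and the smallest adjusted p was 0.907. At an unadjusted p under 0.05 there were 791 for mono-SQ (3.56%), 841 for di-SQ (3.79%), 1912 for tri-SQ (8.61%) and 1301 for tetra-SQ (5.86%). Differences past 1 log2 were estimated for 53, 57, 190 and 114 probe sets in that order. The median half-width of a 95% interval was 0.58 in each pair, wider than the 0.46 of the pooled comparison. This half-width is about 1.5-fold, and a p that misses the threshold does not show that a derivative and squalene act alike. For Rgs8 the pair intervals ran from -1.40 to -0.30 for mono-SQ, -1.62 to -0.51 for di-SQ, -1.64 to -0.54 for tri-SQ and -1.49 to -0.39 for tetra-SQ. The estimates of the 4 derivatives therefore lay within each other's intervals for this gene.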

How the data were processed

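RNA of 3T3-L1 cells was measured on Clariom S arrays, per the labels. The Transcriptome Analysis Console (version 4, per the submitters' processing notes) was run with SST-RMA, per the series' design text. What the authors deposited is 1 log2 value per probe set and array, per the file headers. The deposited table with negative control probe sets (5222) also holds log2 values of these arrays, and each of the 10 columns matched its own sample there (lowest correlation 0.9996).

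The 10 compound arrays entered one linear model (limma 3.58.1 under R 4.3.3, moderated two-sided test, no filter, 22206 probe sets) with group and replicate number as terms, leaving 7 residual degrees of freedom. P values were adjusted with Benjamini-Hochberg (threshold 0.05). The replicate number is a block by the definition of the comparison, and deviations of same-numbered arrays correlated at 0.480 to 0.719 over all 10 pairs of compounds. Of 22206 probe sets, 21367 carried 1 symbol, 836 several and 3 none; of 21154 distinct single symbols 20547 were found in RefSeq (GRCm38.p6), which gave coordinates. Only single symbols were named.

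The members and the 46 lists (1073 entries, 52 symbols not used because the array pairs them with another gene or does not carry them) were chosen with earlier results of these data known. Named genes are the 12 with the smallest p in each direction, with SQ outside the derivatives on that side in both replicates and a level of at least 5.56 in the higher group, and up to 2 per list by p. The list genes named were narrowed after their values were seen, to those with an unadjusted p under 0.05, the leading members of the sterol, fat and housekeeping lists, and a few marker and inflammatory genes; only these and the 24 were tested under the alternatives. Some list members are not reported here. On simulated data with 22206 genes and 50 changed at each size, 14% of the 1.5-fold and 52% of the 2-fold changes were found by the pooled fit. The same fit found 100% of the 4-fold and of the 8-fold ones, and 4 unchanged genes were called. The changed genes were drawn only from those at or above the median level, with noise independent between arrays, so recovery of dimmer genes was not simulated. The number of arrays limits the precision. Alternatives were other normalization, fits, filters and left-out arrays. Figures were drawn with matplotlib 3.10.9.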

Additional observations from a re-analysis of the deposited data

Results flagged for a closer look

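Among 122 groups of 8 derivative arrays tested, 5 had 1 array far from the other 7. The rule's nominal rate is about 1 in 20 for values drawn from one distribution. Each group held both replicate numbers, which differed widely for some genes, so that rate need not apply here. Caprin2 on tri-SQ 2 read 6.88, against 6.11 to 6.40 on the other 7. Cd68 on mono-SQ 1 read 6.03, against 6.65 to 7.04. The median ribosomal protein level was 14.805 on tri-SQ 2, against 15.395 to 15.84. The median proteasome subunit level was 11.105 on tri-SQ 2, against 11.715 to 12.2. The median of the matrix remodelling enzymes was 8.75 on tri-SQ 1, against 9.815 to 10.6.

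In 5 lists the median lay above SQ with each of the 4 derivatives in replicate 1 and below SQ with each in replicate 2. This difference between replicates was not tested for the lists. The 4 derivatives of a replicate number share its SQ array, so their common sign is not 4 separate observations. Ribosomal proteins had 0.476 and -0.353, DNA replication genes 0.148 and -0.231, and heat shock proteins 0.225 and -0.169. The unfolded protein and integrated stress response had 0.08 and -0.066, and lysosome and autophagy genes 0.148 and -0.125.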

How the results depend on the processing

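The pooled count of 0 held in every alternative run except the one without SQ 2, which called 1 gene, Myo9a, at 1.90 (adjusted p 0.0450 in limma, against 0.85 and 0.906 with both SQ arrays); over leave-one-out fits the count ran from 0 to 1. It rests on SQ 1, which read 7.68 while the other 9 arrays were between 8.88 and 9.64. The smallest adjusted p ran from 0.0450 to 1.00 over the alternatives. Unadjusted calls of the pooled comparison (1178) were 659 with no replicate block, 545 with only the probe sets above the median level, 718 with array weights, 2996 with the replicate 1 arrays only and 750 with the replicate 2 arrays only. Leaving out 1 array gave 870 to 2643, the latter without SQ 2. With no replicate block the pairs gave 349, 365, 792 and 548 for mono-, di-, tri- and tetra-SQ, and the brighter probe sets 282, 352, 1051 and 580. Leaving out 1 array gave 536 to 2217 for mono-SQ, 606 to 2428 for di-SQ, 1579 to 2455 for tri-SQ and 727 to 3043 for tetra-SQ, with the highest for mono-, di- and tetra-SQ without SQ 2 and the lowest for tetra-SQ without tetra-SQ 1 (without SQ 1, 856). The test between replicates gave 1306 in the brighter probe sets, which are fewer. The cause of the other shifts was not tested.

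Of 1740 values of named genes under alternatives, 45 changed sign and 0 passed the threshold. With the replicate 2 arrays only, these were Nr1h3 (-0.13), Bscl2 (-0.06), Slc27a4 (-0.0825), Klf5 (-0.23), Uqcrc2 (-0.09), Uqcrfs1 (-0.24), Tlr4 (-0.04), Psmd12 (-0.0275), Fabp4 (-0.18), Cidec (-0.12), Cfd (-0.51), Adipoq (-0.31) and Cd68 (-0.14). Lpl turned to 0.0559 with quantile normalization, 0.00453 with array weights, 0.01 with replicate 1 only, 0.01 with tri-SQ left out and 0.00167 with tetra-SQ left out. Cd68 turned to -0.0441 with array weights, -0.0217 with tri-SQ left out and -0.10 with tetra-SQ left out. Cfd turned to -0.0417 and -0.03 with mono-SQ and di-SQ left out, and Fabp4 to -0.0367 with di-SQ left out. With 1 array left out, the genes that crossed 0 ranged as follows, log2: Nr1h3 -0.13 to 0.71, Bscl2 -0.06 to 1.15, Slc27a4 -0.0825 to 0.98, Klf5 -0.23 to 1.00, Uqcrc2 -0.09 to 1.03, Uqcrfs1 -0.24 to 0.95, Tlr4 -0.04 to 1.04, Psmd12 -0.0275 to 0.58, Fabp4 -0.18 to 0.23, Cidec -0.12 to 0.47, Cfd -0.51 to 0.64, Adipoq -0.31 to 0.55, Cd68 -0.14 to 0.14 and Lpl -0.055 to 0.01.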

Other observations

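Other gene groups of differentiating fat cells also had small differences, and 0 of their members passed the adjusted test in limma. Over all probe sets 50.2% lay above 0 and 49.8% below. Among those above the negative controls the shares were 56.1% and 43.9%. Of 28 genes of fibrillar and other collagens, 14 lay above 0 and 14 below, with a median of -0.02. Of 26 matrix remodelling enzymes 17 lay below 0, with a median of -0.05. Of 15 preadipocyte and anti-adipogenic genes 10 lay below 0, with a median of -0.13, and 8 of the 15 were under the negative controls. Glycolysis genes had 10 of 16 counted above 0, among them Pfkl, whose difference was 0, and a median of 0.00. Hypoxia targets had 13 of 22 above 0, with a median of 0.03. The circadian clock had 9 of 19 above 0, and complement and acute phase genes 13 of 22. Prostaglandin genes had 10 of 19 above 0, with a median of 0.02.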
